A study of Setaria viridis with 5 samples.

Results

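A group of 101 genes, of 35214 listed, was close to silent in wild-type inflorescence primordia of the grass Setaria viridis and detected in both libraries of the bristleless1 (bsl1) mutant. The genes were selected on their abundance, as counts of sequenced RNA fragments per 1000000 fragments of the library (CPM). A member had under 1 CPM in all 3 wild-type libraries and at least 1 CPM in both mutant libraries. Its lowest mutant value was also at least 2 times its highest wild-type value. These values come from the comparison of mutant with wild-type itself, so the genotype difference is described here and is not tested.

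The inflorescence of Setaria carries spikelets, the units that hold the flowers, beside sterile modified branches called bristles. Both start from small mounds of dividing cells, the meristems, and a bsl1 inflorescence is named for its missing bristles. Brassinosteroids, the hormones in the study's title, are plant steroids sensed by a receptor kinase at the cell surface, and their signal ends at transcription factors that switch genes on or off. In grasses they are known for their part in cell elongation, leaf angle and the shape of the inflorescence.

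Each library was made from a pool of about 10 primordia dissected by hand when plants were 15 days past sowing. Wild-type pools came from the line A10.1. The mutant arose in a population treated with the chemical mutagen N-nitroso-N-methylurea. It was selfed, crossed once to A10.1, recovered as homozygotes among the progeny of the selfed F1, and selfed again. Mutant plants may therefore still carry other induced changes besides bsl1, and the wild-type plants were A10.1 itself, per the labels. Libraries held 25393087 to 49162793 fragments. The files pair no identifier with a gene name, and the reference table contained 0 of the identifiers. Roles, tissue markers and hormone pathway genes could therefore not be assigned, and genes are given by identifier, from which the chromosome is read.

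Together the members made up a small part of each library. Their summed abundance was 47.1, 36.0 and 38.0 CPM in wild-type replicates 1, 2 and 3 and 289 and 238 CPM in mutant replicates 1 and 2. Near silence in wild-type was a matter of degree. The median member had 0.469, 0.304 and 0.354 CPM in the wild-type libraries, or 21, 10 and 9 fragments, and the most fragments of any member in 1 wild-type library was 44. Only 5 members had at most 3 fragments in every wild-type library, and 11 had under 10 in each. No member was without fragments in all wild-type libraries, although 8 had 0 fragments in at least 1 of them. The highest wild-type library was at 0.5 CPM or more for 61 of the 101.

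Mutant abundances were low as well. The median was 2.1 CPM in mutant replicate 1 and 1.94 CPM in mutant replicate 2, or 103 and 66 fragments. Both mutant libraries reached 2 CPM for 36 members, 5 CPM for 3 and 10 CPM for 0. Across the 20498 genes that passed the filter on low counts, the median of the mean abundance was 17.0 CPM in wild-type and 18.2 CPM in the mutant. In pooled primordia, a gene active in few cells and a gene weakly active in many cannot be told apart, nor can fewer cells of a type and less RNA per cell.

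**Figure D1:**
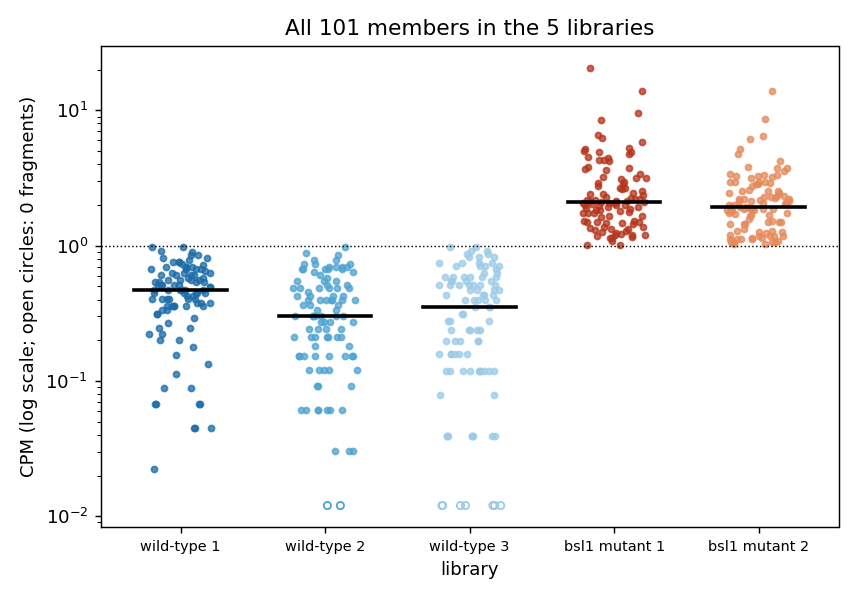
Abundance of all 101 members in each of the 5 libraries, in CPM on a log axis. Each point is a gene, black bars are medians (0.469, 0.304 and 0.354 CPM in wild-type, 2.1 and 1.94 CPM in the mutant) and open circles are genes with 0 fragments; the separation at 1 CPM was set by the rule.

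The widest separation was that of Sevir.8G138100 on chromosome 8. It had 1, 0 and 2 fragments in wild-type replicates 1, 2 and 3 and 156 and 143 in mutant replicates 1 and 2. Mean abundance was 0.0337 ± 0.0406 CPM (SD, n = 3) for wild-type and 3.69 ± 0.724 CPM (SD, n = 2) for bsl1. Pooled over libraries, mutant abundance was 123 times that of wild-type, with a 95% interval from counting error of 41.8 to 602. Such intervals were exact (Clopper-Pearson on the split of fragments between genotypes) and leave out the spread between libraries. The gene was barely detected in wild-type, at or under the 3 fragments taken as the floor in each library, and far above it in both mutant libraries.

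Sevir.9G494300 on chromosome 9 had 4, 2 and 1 wild-type fragments and 101 and 112 mutant fragments. Its pooled ratio was 37.7 (18.0 to 94.9). By fragments relative to transcript length (FPKM), it stood among the stronger members, at 7.26 and 12 FPKM in the mutant against 0.320, 0.289 and 0.120 FPKM in wild-type. Sevir.4G255600 on chromosome 4 had 3, 2 and 1 fragments against 63 and 66, a pooled ratio of 26.6 (11.9 to 73.9). Both genes were low in each wild-type library, and in both the mutant replicate 2 had the higher abundance.

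Sevir.5G311500, Sevir.9G509700 and Sevir.4G208400 stayed in single figures of fragments in each wild-type library, and their ratios of CPM between mutant replicates 1 and 2 were 0.801, 1.04 and 0.902. Sevir.5G311500 on chromosome 5 had 3, 2 and 3 fragments in wild-type and 74 and 64 in the mutant. Sevir.9G509700 on chromosome 9 had 7, 2 and 3 against 98 and 65. Sevir.4G208400 on chromosome 4 had 9, 0 and 0 against 95 and 73, so that every wild-type fragment of it came from replicate 1. Sevir.3G131400 on chromosome 3 was similar in the mutant but higher in wild-type replicate 1, with 11, 2 and 3 fragments against 118 and 80.

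The last of the 10 widest gaps belonged to Sevir.5G179100 on chromosome 5 and Sevir.1G278500 on chromosome 1, ranked with libraries at 0 counted as 3 fragments. Both had 56 and 38 fragments in the mutant, just over the limit of 1 CPM. Their wild-type fragments were 2, 3 and 0 for Sevir.5G179100 and 3, 3 and 0 for Sevir.1G278500.

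The member with the highest mean in the mutant was Sevir.7G238900 on chromosome 7. It had 33, 10 and 18 fragments in wild-type and 1014 and 219 in the mutant, or 0.583 ± 0.243 CPM (SD, n = 3) and 13.5 ± 10.0 CPM (SD, n = 2). The mutant libraries differed 3.21-fold (95% counting interval 2.77 to 3.73), so its level in the mutant is poorly fixed. Sevir.7G271500, also on chromosome 7, was both high and more even. Its 31, 10 and 19 wild-type fragments stood against 470 and 474, or 0.582 ± 0.242 CPM (SD, n = 3) and 11.7 ± 3.08 CPM (SD, n = 2). Its gap ranked number 4 among the members, and its 13.1 and 24.8 FPKM in the mutant include the highest FPKM of any member.

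Sevir.1G094300 on chromosome 1 had the next highest mutant mean, but its value came mostly from 1 library, with 679 fragments in mutant replicate 1 and 112 in replicate 2. Its wild-type fragments were 16, 3 and 2. Sevir.2G045800 on chromosome 2 leaned the other way, at 5.19 and 8.66 CPM in mutant replicates 1 and 2 and 0.671, 0.273 and 0.591 CPM in wild-type. Sevir.5G090500 on chromosome 5 had 36, 4 and 4 fragments in wild-type and 417 and 100 in the mutant. Replicate 1 of each genotype was the high library for that gene. These 5 genes made up 19.9% of the members' summed CPM in mutant replicate 1 and 14.8% in replicate 2, so most of the sum came from the other members.

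**Figure D2:**
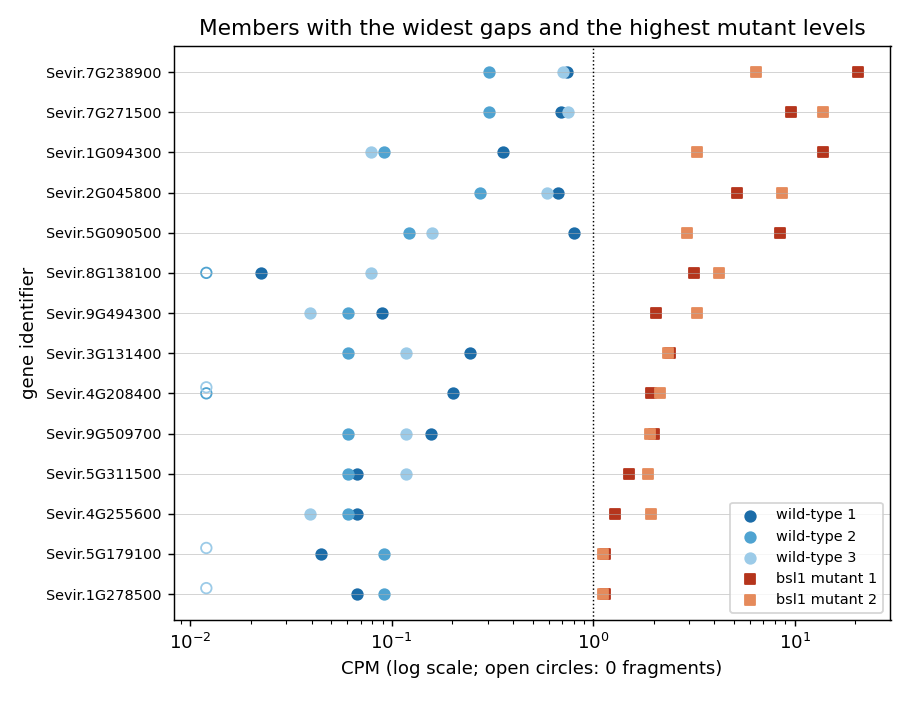
CPM in each library, on a log axis, of the 14 members with the widest gaps or the highest mutant means. Circles are wild-type libraries, squares mutant libraries, open circles 0 fragments; Sevir.7G238900 and Sevir.1G094300 show the wide gap between mutant libraries, Sevir.8G138100 the widest gap between genotypes.

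Most members sat much nearer the rule's limits than these. The ratio of the lowest mutant to the highest wild-type library had a median of 2.93 over the 101. It was at least 3 for 47 members, at least 5 for 21 and at least 10 for 6, with libraries at 0 counted as 3 fragments, and it was under 2.5 for 32. Just inside the limit of 2 were Sevir.5G277800 (2.01), Sevir.9G521100 (2.02) and Sevir.9G112500 (2.05). Just outside were Sevir.9G042600 (1.99), Sevir.7G048300 (1.98) and Sevir.9G464000 (1.98). The genes on both sides were alike in these values, so the edge of the group is a convention. At the mutant limit of 1 CPM, Sevir.8G089300 was inside with a lowest mutant value of 1.02 CPM and Sevir.7G328200 outside with 0.998 CPM. At the wild-type limit, Sevir.9G333900 was inside with 0.985 CPM and Sevir.5G384300 outside with 1.002 CPM.

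**Figure D3:**
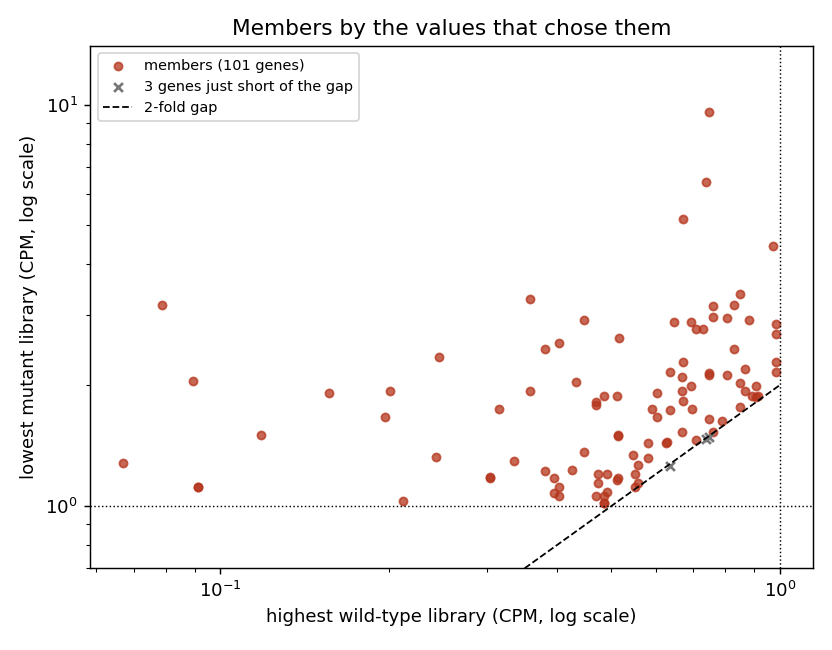
The highest wild-type library (x, CPM) against the lowest mutant library (y, CPM) for the 101 members, on log axes, with the limits at 1 CPM and the 2-fold gap drawn in. Crosses are the 3 nearest of the 132 genes that missed only the gap. Many members lie close to the 2-fold line. With libraries at 0 counted as 3 fragments, 6 members reach a ratio of 10 or more. The points are drawn without that floor, which puts Sevir.5G179100 and Sevir.1G278500 at 12.2 as well.

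The opposite pattern was rare under the same limits. Of 17171 genes under 1 CPM in every wild-type library, 233 reached 1 CPM in both mutant libraries, and 101 of these (0.588% of the 17171) also kept the 2-fold gap. Of 16961 genes under 1 CPM in both mutant libraries, 12 reached 1 CPM in every wild-type library and 1 kept the gap. That gene, Sevir.2G397400, had 127, 95 and 94 fragments in wild-type and 7 in each mutant library. The 2 directions set unlike demands, so their counts are not on equal terms. Members needed 3 libraries under 1 CPM and 2 at 1 CPM or more, the opposite pattern 2 and 3.

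The mutant libraries, which were close to each other over most genes, differed more over the members. The median absolute log2 difference between them was 0.330 for the members and 0.112 for all tested genes, which have more fragments and so less counting error. For 44 members the 95% counting interval of the ratio between mutant libraries excluded 1, with replicate 1 higher for 26 and replicate 2 higher for 18. Large ratios lay on 1 side only. Mutant replicate 1 was at least 2 times replicate 2 for 16 members and at least 3 times for 7, while replicate 2 was never more than 1.85 times replicate 1, reached by Sevir.3G017800. None of these counts was made over all tested genes, so they are not read as a trait of the members. The widest ratio was 4.30 (3.06 to 6.20) for Sevir.9G112500, which had 242 fragments in mutant replicate 1 and 39 in replicate 2 and only just met the gap. Of the 7 members at least 3-fold higher in replicate 1, 4 were on chromosome 9, which held 24 of all 101 members. The 4 were Sevir.9G112500, Sevir.9G355500, Sevir.9G480600 and Sevir.9G522700, mentioned after their values were seen.

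The wild-type libraries were not alike either. Replicate 1 was the highest wild-type library for 49 members (48.5%, against 39.8% of tested genes), replicate 2 for 24 and replicate 3 for 28. On the log2(CPM + 0.1) scale, the members' median difference of replicate 1 from the mean of replicates 2 and 3 was 0.24, against -0.01 over tested genes. It depended on the scale, at 0.09 with a pseudocount of 0.5 and 0.09 on log2(FPKM + 0.1). In 22 members (21.8%, against 5.32% of tested genes) replicate 1 was at least 2 times both others, with libraries at 0 counted as 3 fragments. Tested genes have more fragments and so less counting error, and genes as low as the members were not compared. The medians of these 22 were 0.536, 0.137 and 0.118 CPM in wild-type replicates 1, 2 and 3. For the other 79 they were 0.447, 0.395 and 0.473 CPM.

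The 22 members with a high wild-type replicate 1 also leaned to mutant replicate 1. It was the higher mutant library for 19 of the 22 (86.4%) and for 32 of the other 79 (40.5%). Over all tested genes replicate 1 was the higher for 45.4%, and for 58.6% of the 1090 tested genes with wild-type replicate 1 at least 2 times both others. Medians of the 22 were 3.36 and 1.97 CPM in mutant replicates 1 and 2, while the other 79 had 1.99 and 1.94 CPM. The 22 were picked out by their values, so this is a description. No label ties the libraries numbered 1 to a shared batch, and the part of batch, depth or dissected tissue in it was not tested. Wild-type replicate 1 and mutant replicate 1 are the deepest library of each genotype, at 44739001 and 49162793 fragments.

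**Figure D4:**
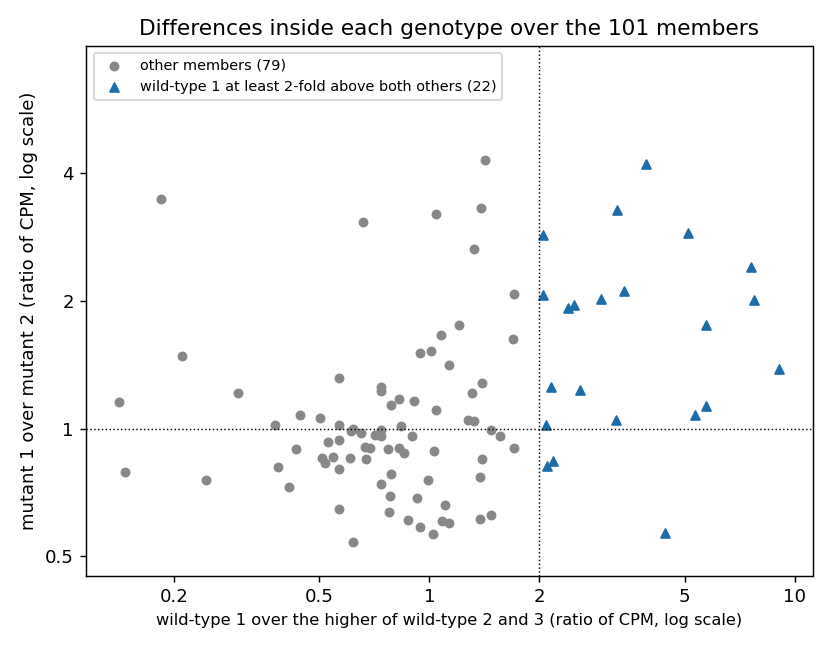
Differences inside each genotype for the 101 members, on log axes: wild-type replicate 1 over the higher of replicates 2 and 3 (x) against mutant replicate 1 over mutant replicate 2 (y), as ratios of CPM with 0 counted as 3 fragments. Triangles are the 22 members with wild-type replicate 1 at least 2-fold above both others, of which 19 lie above a mutant ratio of 1.

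On the deposited FPKM values, 100 of the 101 members had both mutant libraries above every wild-type library, as had 7.46% of tested genes. The rule used this contrast, so nothing is read from that count. The exception was Sevir.4G077500, at 2.33 FPKM in wild-type replicate 2 and 1.95 FPKM in mutant replicate 2, although its fragments gave 0.668 and 2.14 CPM. The gap was at least 2-fold on FPKM for 61 members. Member medians were 0.375, 0.359 and 0.173 FPKM in wild-type and 1.77 and 1.54 FPKM in the mutant. Tested genes had medians of 8.89 to 11.3 FPKM over the 5 libraries. Both mutant libraries reached 5 FPKM for 4 members, Sevir.9G494300 and Sevir.7G271500 described above and Sevir.4G176300 and Sevir.5G246000. Sevir.4G176300 had 1.46, 0.915 and 0 FPKM in wild-type and 18.8 and 7.78 FPKM in the mutant. Sevir.5G246000 had 1.72, 0.676 and 1.1 FPKM against 7.12 and 13.4 FPKM.

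Dividing CPM by FPKM in mutant replicate 1 gave an implied transcript length in kilobases, written here in bases. Its median was 1201 bases over the members, from 283 to 7900. Over tested genes, most of which were far more abundant, the median was 1855 bases. Other weakly expressed genes were not compared. The shortest was Sevir.9G494300 and the longest Sevir.8G138100, and the latter had 156 fragments and 0.402 FPKM in that library. Its CPM was 3.17 in mutant replicate 1 and 4.20 in replicate 2, while its FPKM was 0.402 and 0.784. The implied length therefore depends on the library used. None of the members had an estimated fragment count that was not exactly whole in any library. Among tested genes 2.08% had one, a share too small to set the members apart.

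The members were spread over all 9 chromosomes. Chromosome 9 held 24 of them, 0.976% of its genes under 1 CPM in every wild-type library, and chromosome 4 held 12 (0.756%). The lowest shares were those of chromosome 8 (5 members, 0.276%) and chromosome 6 (4 members, 0.289%), and none of the 177 genes with no numbered chromosome was a member. Allowing up to 5 other genes between neighbouring members in identifier order, there were 3 pairs and no longer run. The number of pairs among genes placed at random was not worked out.

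The 1 pair of directly adjacent genes, Sevir.9G033200 and Sevir.9G033300, shared a pattern within wild-type. Sevir.9G033200 had 40, 1 and 0 fragments in wild-type and 222 and 64 in the mutant. Sevir.9G033300 had 31, 4 and 1 against 111 and 68. Most wild-type fragments of both came from replicate 1. The pair Sevir.6G022200 and Sevir.6G022500, with 2 genes between, did not share one. The former was even in wild-type, with 16, 13 and 9 fragments, while the latter had 31, 4 and 0. In the pair Sevir.9G160800 and Sevir.9G161100, the former had 38, 12 and 10 wild-type fragments and the latter 2, 10 and 3. Fragments from near-identical neighbouring genes could not be told from the files.

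**Figure D5:**
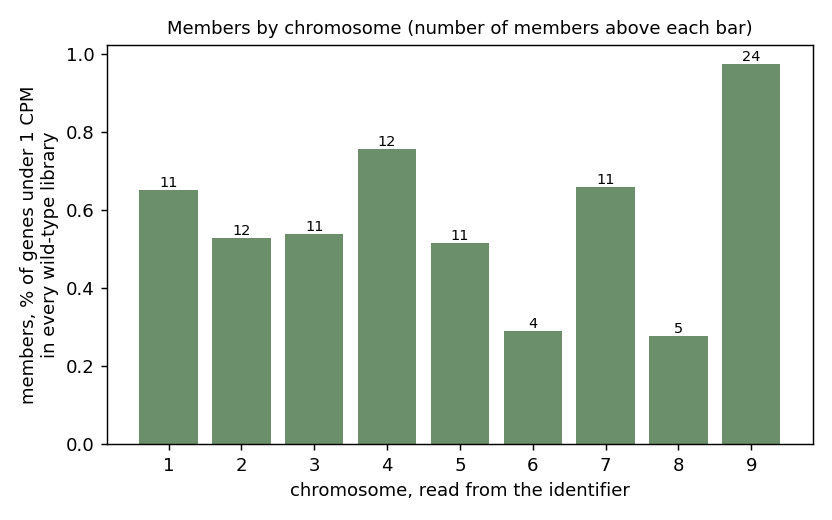
Members on each numbered chromosome as a percent of its genes under 1 CPM in every wild-type library; numbers above the bars count members. Chromosome 9 has the most, 24 members (0.976%), and chromosome 8 the lowest share (0.276%).

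In edgeR's quasi-likelihood test over the 20498 genes that passed the filter on low counts, 0 of the 101 members passed an adjusted p of 0.05. Of these tested genes, 0.00976% were called higher in the mutant. The members' lowest edgeR adjusted p was 0.0574. All 101 had an unadjusted p under 0.05 in the higher direction, as had 7.61% of tested genes. DESeq2 called 78 of them (2.59% of tested genes). Without wild-type replicate 1, edgeR called 69 of them (3.78% of tested genes). The rule's mutant limit alone took every member past the filter on low counts, and the rule fixed the direction of its fold. These counts therefore describe the group and support nothing. The members' edgeR log2 folds ran from 1.20 to 6.75 with a median of 2.39, where the median over tested genes was -0.01.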

How the data were processed

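RNA-seq of inflorescence primordia was compared between 3 wild-type and 2 bsl1 mutant libraries. Per the submitters' processing notes, TopHat2 2.1.0 and Cuffdiff 2.2.1 were used; the sources used here do not name a genome build, a strand setting or how FPKM was normalized. The authors deposited estimated counts of fragments per gene, nearly all whole, and FPKM values. The design allowed for FPKM alone, but counts were present and were tested. Nothing says that pools came from separate plantings, so p-values measure the spread between pools.

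CPM for the rule used column totals, with no further scaling. Counts were rounded and tested with edgeR 4.0.16 in R 4.3.3 (filterByExpr minimum count 10, TMM, quasi-likelihood test, Benjamini-Hochberg adjustment, threshold 0.05), with DESeq2 1.42.0 as an alternative; both were tested on simulated data. Counting intervals are at 95%. Members, lists and naming rules were chosen with earlier results of these data known. Members named were the 10 with the widest gap, the 5 with the highest mutant mean, those nearest the 2-fold limit and those in neighbouring pairs; others were chosen after their values were seen. Gene lists and tissue markers could not be applied, because no identifier matched a name.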

Additional observations from a re-analysis of the deposited data

How the results depend on the processing

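Membership follows the limits. The rule gave 101 genes, 85 with TMM or DESeq2 size factors and 144 with a wild-type ceiling of 2 CPM. It gave 40 with a ceiling of 0.5 CPM, 36 with a mutant floor of 2 CPM, 47 with a 3-fold gap and 60 on FPKM, of which 38 were among the 101. Leaving out 1 library gave 128 to 230 genes, as fewer libraries had to meet the limits, with 206 without wild-type replicate 1 and 230 without mutant replicate 2. In the main edgeR fit all 101 members had an unadjusted p under 0.05. Called higher were 0 members and 2 tested genes, the same with DESeq2 size factors. Without the low-count filter these calls were 10 and 48, with DESeq2 78 and 531, and with a replicate block 0 and 0. Leaving out 1 library gave 0 to 69 and 0 to 766, the upper values without wild-type replicate 1 and 0 otherwise; in fits with a single mutant library, that library is assumed to vary as the wild-type ones do. The cause was not tested. No label says that replicate numbers mark pairs, and libraries sharing number 1 or 2 had deviations from their genotype's mean that correlated, across genes, at 0.157 and -0.0204. With only 2 mutant libraries, their deviations are equal and opposite, so these values cannot show whether the numbers mark pairs. The wild-type replicate 1 difference of 0.24 was 0.25 with TMM, 0.09 with a pseudocount of 0.5 and 0.09 on FPKM. For the 26 genes named by rule, 47 of 234 alternative fits made a call, 22 of them without wild-type replicate 1; their direction was fixed by how the genes were chosen. Members had at most 44 fragments in any wild-type library, which limits the precision of every ratio.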

Other observations

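A further 105 genes met the same limits once wild-type replicate 1 was left out. Their medians were 1.41, 0.577 and 0.512 CPM in wild-type replicates 1, 2 and 3 and 2.16 and 1.94 CPM in mutant replicates 1 and 2, and the choice of genes itself fixed that wild-type replicate 1 was the high wild-type library. It was at 1 CPM or more for 84 of the 105, above the lower mutant library for 28 and above both for 15.

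Leaving out mutant replicate 2 added 129 genes. Their medians were 0.358, 0.273 and 0.276 CPM in wild-type and 1.38 and 0.734 CPM in mutant replicates 1 and 2. Mutant replicate 2 was under 1 CPM for 105 of them and at 1 CPM or more, but short of the gap, for 24.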
